A study of Mus musculus with 9 samples.

Results

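Expression of 8 lipid-handling genes was followed across 9 arrays of mouse embryonic fibroblasts: the lipase genes Lipg, Lpl, Lipa, Lipe, Pnpla2 and Mgll, the phospholipase gene Pla2g7 and the fatty acid binding protein gene Fabp4. The genes were found by gene symbol. All 8 were present, each with 1 probe set carrying that single symbol, among 19938 genes tested, so no choice between probe sets had to be made for them. The probe sets were 10459772 for Lipg, 10572130 for Lpl, 10467139 for Lipa, 10561031 for Lipe, 10558921 for Pnpla2, 10539894 for Mgll, 10445293 for Pla2g7 and 10497265 for Fabp4. Lipg and Pla2g7 were chosen by their measured differences between the shRNA groups, so their values are given as a description with no test. The other 6 genes were named with earlier results of these data known.

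The cells were immortalized fibroblasts of an ICR background grown at 37 degrees with 10% serum. Every group received an adenovirus coding for a short hairpin RNA (shRNA): the dose was 1e8 pfu per ml, left on the cells for 2 h and followed by 70 h of culture. On 3 arrays the hairpin targeted HSF1, the transcription factor that drives the heat shock response, on 3 it targeted RPA1, a subunit of the complex that coats single-stranded DNA, and on 3 control arrays it was scrambled. The question behind the arrays was whether HSF1 acts on gene expression together with RPA. Separate cultures are not stated for the replicates, so standard errors and p-values measure the spread between these arrays, which may be technical.

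Lipases split esters of fatty acids. Endothelial lipase (Lipg) and lipoprotein lipase (Lpl) are secreted, bind heparan sulfate at the cell surface and act on circulating lipoproteins, Lipg mainly on phospholipids and Lpl mainly on triglycerides. Lysosomal acid lipase (Lipa) hydrolyses cholesteryl esters and triglycerides taken up with lipoproteins. Inside the cell, adipose triglyceride lipase (Pnpla2), hormone-sensitive lipase (Lipe) and monoglyceride lipase (Mgll) remove the fatty acids of a stored triglyceride step by step. Pla2g7 encodes a secreted acetylhydrolase that inactivates platelet-activating factor and cleaves oxidised phospholipids, and the protein of Fabp4 carries fatty acids in adipocytes and macrophages and binds hormone-sensitive lipase.

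Sequence upstream of the transcription start was taken from RefSeq (GRCm38.p6) for the 5 of 8 genes that the promoter table held, Lipa, Lipe, Pnpla2, Mgll and Pla2g7, which together had 7 windows of 250 bases. Heat shock factors bind inverted repeats of GAA, so the windows were searched on both strands for TTCNNGAA and GAANNTTC. They were also searched for CACGTG, an E-box that TFEB and other bHLH factors can bind. None of the 3 palindromes contains another. Of the 7 windows 0 held TTCNNGAA and 0 held GAANNTTC, against 7.17% and 6.69% of all 32851 windows of this length. At such shares 0 in 7 windows is a likely outcome, so no conclusion is drawn from it. Lipg, Lpl and Fabp4 had no window to search. CACGTG stood in 2 of the 7, against 6.02% of all windows: in one Lipe window it began 155 bases before the start, and in one Mgll window 44 bases before it. With 7 windows no conclusion is drawn from this share either. The 3 windows below belong to the genes in this set with an upstream sequence that were lower on all RPA1 shRNA arrays than on any control array, written 5′ to 3′ on the strand of the gene and ending just before the start, with CACGTG in capitals. The Lipa window is chr19:34527475-34527724 on the minus strand, the Lipe window shown chr7:25395988-25396237 on the minus strand and the Pla2g7 window chr17:43568201-43568450 on the plus strand. The other Lipe window, chr7:25390113-25390362 on the same strand, held none of the 3 palindromes and is not shown.
Lipa: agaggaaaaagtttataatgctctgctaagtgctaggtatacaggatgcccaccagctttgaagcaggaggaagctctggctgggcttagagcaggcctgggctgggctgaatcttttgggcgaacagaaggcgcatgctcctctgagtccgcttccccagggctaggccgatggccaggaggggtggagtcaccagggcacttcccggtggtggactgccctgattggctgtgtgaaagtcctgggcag
Lipe: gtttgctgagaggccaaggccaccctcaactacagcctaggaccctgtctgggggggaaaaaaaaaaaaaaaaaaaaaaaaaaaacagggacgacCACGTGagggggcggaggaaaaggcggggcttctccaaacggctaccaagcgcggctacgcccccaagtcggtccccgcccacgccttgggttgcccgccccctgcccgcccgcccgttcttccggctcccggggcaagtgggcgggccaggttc
Pla2g7: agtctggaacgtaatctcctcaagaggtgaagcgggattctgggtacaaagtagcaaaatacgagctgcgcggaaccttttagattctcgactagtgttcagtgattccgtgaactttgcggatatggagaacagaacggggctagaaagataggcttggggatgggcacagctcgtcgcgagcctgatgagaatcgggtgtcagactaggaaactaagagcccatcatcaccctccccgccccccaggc

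The values are log2 signals as the authors deposited them, and levels of different probe sets are not compared with each other. Differences are HSF1 shRNA minus control, RPA1 shRNA minus control or HSF1 shRNA minus RPA1 shRNA, each ± the standard error (SE) of a limma model fitted to all genes and all 9 arrays, with n = 3 arrays per group. Calls were made where the p adjusted over all 19938 genes was under 0.05. An exact permutation test of 3 arrays against 3 cannot go below p = 0.1, so every call rests on the variance model of limma. Both comparisons with the control use the same 3 control arrays. The Hsf1 transcript was not analysed here. Rpa1 read 11.35, 11.33 and 11.30 on the HSF1 shRNA arrays, 9.42, 9.34 and 9.40 on the RPA1 shRNA arrays and 11.40, 11.42 and 11.41 on the control arrays. RPA1 shRNA array 3 stood apart: for genes at least 1 log2 unit from the control in the other 2 arrays of its group, its own difference was 0.675 times theirs (median of 506 genes), against 1.079 and 1.061 for arrays 1 and 2. Identical values were frequent between arrays of the same group (3.63% to 5.48% of rows per pair) and of different groups (2.91% to 5.21%), and they narrow the SD of the genes that have them.

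Lipg was high in 1 group. It read 9.14, 8.92 and 9.0 under HSF1 shRNA, 7.46, 7.31 and 7.70 under RPA1 shRNA, and 7.49, 7.39 and 7.38 in the control. All HSF1 shRNA arrays lay above all other arrays, while the RPA1 shRNA and control values overlapped. The means were 9.02 ± 0.11 under HSF1 shRNA, 7.49 ± 0.20 under RPA1 shRNA and 7.42 ± 0.06 in the control (SD, n = 3). The difference between HSF1 shRNA and control was 1.60 ± 0.10, which is 3.03-fold and rank 4 of 19938 genes by size of positive difference. Between HSF1 shRNA and RPA1 shRNA it was 1.53 ± 0.10, or 2.89-fold, rank 9 on the same measure. Between RPA1 shRNA and control it was 0.07 ± 0.10, and -0.04 ± 0.08 without RPA1 shRNA array 3. RNA was measured from whole cultures, in which more cells that express a gene and more of its RNA per cell cannot be told apart.

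Pla2g7 stood off the control in both groups, in opposite directions. It read 11.15, 11.04 and 10.93 under HSF1 shRNA, 8.87, 9.01 and 9.95 under RPA1 shRNA, and 10.59, 10.59 and 10.61 in the control. All HSF1 shRNA arrays stood above the control arrays and all RPA1 shRNA arrays below them. The means were 11.04 ± 0.11 under HSF1 shRNA, 9.27 ± 0.59 under RPA1 shRNA and 10.60 ± 0.01 in the control (SD, n = 3). RPA1 shRNA array 3 was nearest to the control and set most of the SD of its group. The difference of RPA1 shRNA from control was -1.32 ± 0.23 (2.5-fold lower, rank 93 by size of negative difference), and -1.66 ± 0.07 without that array. HSF1 shRNA minus control was 0.44 ± 0.23 (1.36-fold), a standard error that became 0.06 when RPA1 shRNA array 3 was left out, with the same difference. Set against each other, HSF1 shRNA and RPA1 shRNA differed by 1.76 ± 0.23 (3.4-fold, rank 5 by size of positive difference), and by 2.10 ± 0.07 without RPA1 shRNA array 3.

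The pair thus differed in which group stood off the control. For Lipg the gap between the knockdowns came from the HSF1 shRNA arrays, since the RPA1 shRNA and control means lay 0.07 apart. For Pla2g7 the larger share came from the RPA1 shRNA arrays, with -1.32 on that side and 0.44 on the other. The control arrays had the smallest SD for both genes, as for every other gene of the set except Lipe.

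**Figure D1:**
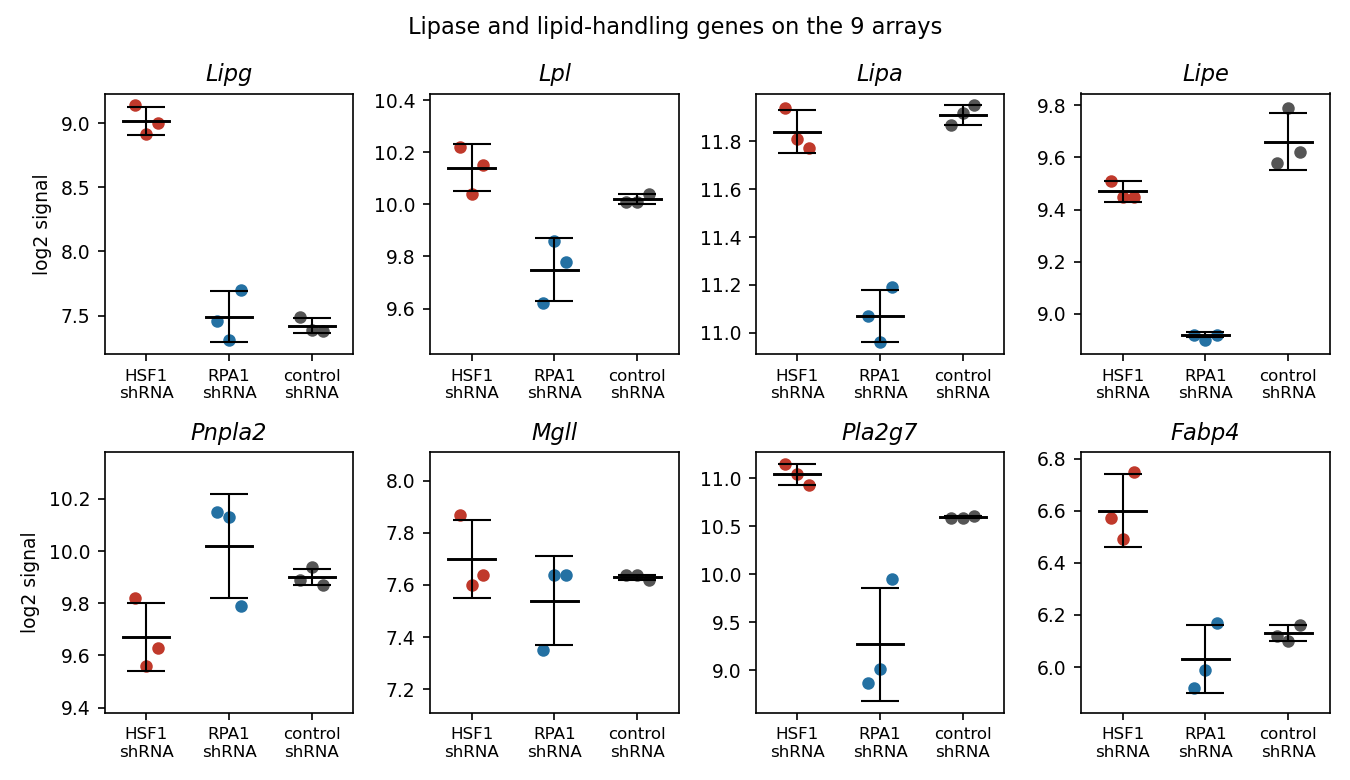
Log2 signal of the 8 genes on each array, by shRNA group (points: arrays; long line and bar: mean ± SD, n = 3); each panel has its own axis range, and none starts at 0. The HSF1 shRNA arrays of Lipg lie between 8.92 and 9.14, above all others, and the RPA1 shRNA arrays of Pla2g7 between 8.87 and 9.95, below all others.

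Among the 6 other genes, 1 rose, 0 fell and 5 did not pass under HSF1 shRNA against the control, where 16.1% of all genes were called, 9.89% higher and 6.21% lower. That split of all genes depended on scaling: 1971 were higher and 1239 lower as deposited, and 1593 higher and 1717 lower with each array centred on the median. Under RPA1 shRNA against the control 0 rose, 3 fell and 3 did not pass, where 30.1% of all genes were called, 15.4% higher and 14.7% lower. Between HSF1 shRNA and RPA1 shRNA 4 were higher under HSF1 shRNA, 1 was lower and 1 did not pass, where 24.4% of all genes were called, 14.7% higher and 9.71% lower. Here the split of all genes was 2928 higher and 1935 lower as deposited, and 2426 and 2672 after median centring. The median difference of the 6 genes was 0.00, -0.18 and 0.47 in the 3 comparisons in this order, against 0.036, 0.017 and 0.020 over all genes. With 6 genes, these counts describe the genes and say nothing of lipases in general.

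Among the secreted lipases, Lpl fell under RPA1 shRNA. It read 10.22, 10.04 and 10.15 under HSF1 shRNA, 9.62, 9.86 and 9.78 under RPA1 shRNA, and 10.01, 10.01 and 10.04 in the control. The RPA1 shRNA arrays lay below the rest, while the lowest HSF1 shRNA array and the highest control array both read 10.04 after rounding. Control arrays 1 and 2 held an identical value. The fall under RPA1 shRNA was -0.26 ± 0.07, or 1.2-fold (limma adjusted p = 0.018). This call was lost without RPA1 shRNA array 1 (-0.20, adjusted p = 0.059 by limma) and without control array 3 (-0.25, adjusted p = 0.06 by limma). HSF1 shRNA minus control was 0.12 ± 0.07 (limma adjusted p = 0.3, 95% interval -0.04 to 0.28). The knockdowns differed by 0.38 ± 0.07, higher under HSF1 shRNA (limma adjusted p = 0.0038). The genes Lpl and Lipg encode related enzymes, and their HSF1 shRNA minus control differences were 0.12 and 1.60. Lipg was chosen by its difference, so this contrast is a description and was not tested.

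Lipa, the lysosomal enzyme gene, had the largest fall of the 6 under RPA1 shRNA. It read 11.94, 11.81 and 11.77 under HSF1 shRNA, 11.07, 10.96 and 11.19 under RPA1 shRNA, and 11.87, 11.92 and 11.95 in the control. The RPA1 shRNA arrays were low without overlap, and the other groups overlapped. The fall was -0.84 ± 0.07, or 1.79-fold (limma adjusted p = 3e-05), rank 313 of all genes by size of negative difference. HSF1 shRNA minus control was -0.07 ± 0.07 (limma adjusted p = 0.55, 95% interval -0.23 to 0.08). HSF1 shRNA stood 0.77 ± 0.07 above RPA1 shRNA (limma adjusted p = 0.00014).

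Lipe, the gene of hormone-sensitive lipase, also fell under RPA1 shRNA. It read 9.51, 9.45 and 9.45 under HSF1 shRNA, 8.92, 8.90 and 8.92 under RPA1 shRNA, and 9.58, 9.79 and 9.62 in the control. The groups did not overlap, with RPA1 shRNA lowest and the control highest. The fall was -0.75 ± 0.06, or 1.68-fold (limma adjusted p = 2.8e-05). HSF1 shRNA minus control was -0.19 ± 0.06 (limma adjusted p = 0.062, 95% interval -0.32 to -0.05 with no adjustment). This difference passed the threshold under 6 of 19 alternatives, among them each of the 3 scalings over the tested genes. HSF1 shRNA stood 0.56 ± 0.06 above RPA1 shRNA (limma adjusted p = 0.00032).

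Pnpla2, the gene of the lipase that starts triglyceride breakdown, ran the other way. It read 9.82, 9.56 and 9.63 under HSF1 shRNA, 10.15, 10.13 and 9.79 under RPA1 shRNA, and 9.89, 9.94 and 9.87 in the control. The HSF1 shRNA arrays were all below the control arrays, and RPA1 shRNA array 3 fell among the HSF1 shRNA values while arrays 1 and 2 lay above the control. HSF1 shRNA minus RPA1 shRNA was -0.35 ± 0.10 (limma adjusted p = 0.028). Leaving out RPA1 shRNA array 3 gave -0.47 ± 0.07. The call was lost in 6 of 19 alternatives, among them the fit to only these 6 arrays (adjusted p = 0.083 by limma) and leaving out RPA1 shRNA array 1 (-0.29, adjusted p = 0.11 by limma). Against the control, HSF1 shRNA gave -0.23 ± 0.10 (limma adjusted p = 0.16, 95% interval -0.45 to -0.01 with no adjustment) and RPA1 shRNA gave 0.12 ± 0.10 (limma adjusted p = 0.4, interval -0.10 to 0.35). Leaving out RPA1 shRNA array 3, both passed, at -0.23 ± 0.06 (limma adjusted p = 0.032) and 0.24 ± 0.07 (limma adjusted p = 0.028).

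Mgll, which encodes the last enzyme of the sequence, passed in none of the 3 comparisons. It read 7.87, 7.60 and 7.64 under HSF1 shRNA, 7.35, 7.64 and 7.64 under RPA1 shRNA, and 7.64, 7.64 and 7.62 in the control. All groups overlapped, 1 array in each knockdown group stood away from the rest, and 5 of the 9 arrays held an identical value. The differences were 0.07 ± 0.09 for HSF1 shRNA minus control (95% interval -0.14 to 0.28), -0.09 ± 0.09 for RPA1 shRNA minus control (-0.30 to 0.12) and 0.16 ± 0.09 for HSF1 shRNA minus RPA1 shRNA (-0.04 to 0.37). Their limma adjusted p-values were 0.67, 0.52 and 0.25 in this order. With array weights the last 2 passed, at -0.22 and 0.25 (limma adjusted p = 0.03 and 0.023).

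Fabp4 was the 1 gene of the 6 that rose under HSF1 shRNA. It read 6.57, 6.49 and 6.75 under HSF1 shRNA, 5.92, 5.99 and 6.17 under RPA1 shRNA, and 6.12, 6.10 and 6.16 in the control. The HSF1 shRNA arrays lay above all others, and the RPA1 shRNA and control arrays overlapped. The rise was 0.47 ± 0.08, or 1.39-fold (limma adjusted p = 0.0046), and kept its call in all 18 alternatives that held the gene. RPA1 shRNA minus control was -0.10 ± 0.08 (limma adjusted p = 0.4, 95% interval -0.29 to 0.08). HSF1 shRNA stood 0.58 ± 0.08 above RPA1 shRNA (limma adjusted p = 0.0012). The mean of Fabp4 over the 9 arrays lay at percentile 16.4 of all genes, the lowest place in the set. Signal over background was not analysed here. The means of the others lay between percentile 39.8 (Mgll) and 92.2 (Lipa), with Lipg at 45 and Pla2g7 at 76.3.

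**Figure D2:**
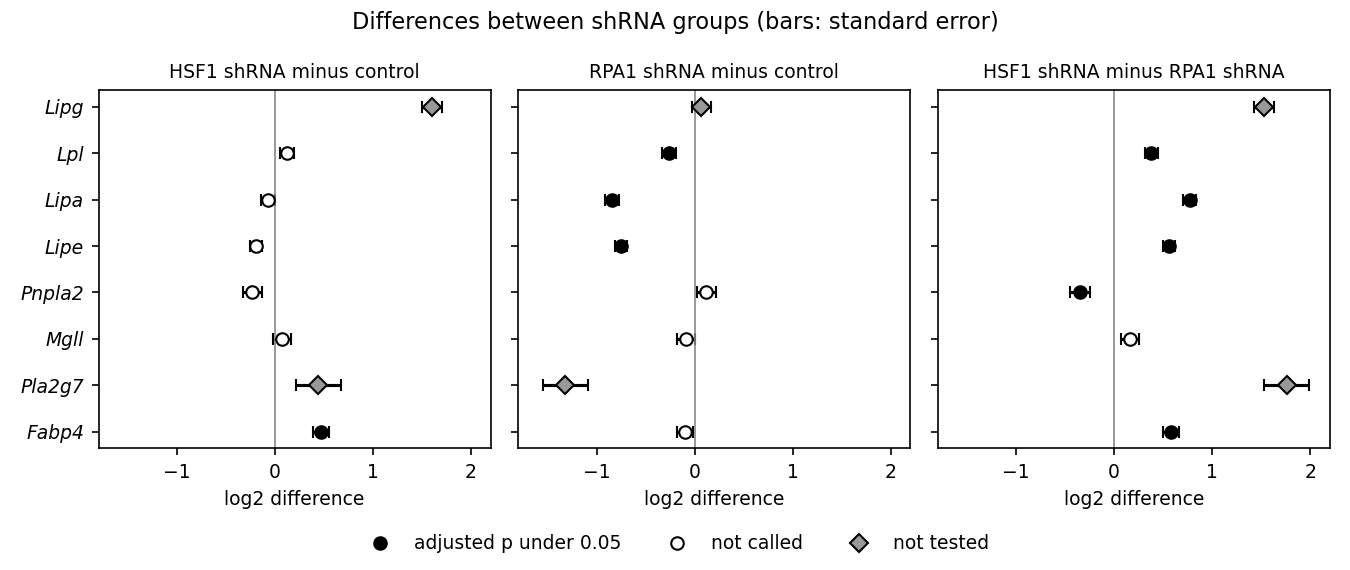
Log2 differences of the 8 genes in the 3 comparisons, with bars for the standard error (n = 3 arrays per group). Filled circles passed an adjusted p under 0.05, open circles did not, and grey diamonds mark Lipg and Pla2g7, which were not tested. In the left panel Lipg stands at 1.60, in the middle panel Pla2g7, Lipa and Lipe are lowest at -1.32, -0.84 and -0.75, and in the right panel Pnpla2 alone is negative.

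The order of the group means from high to low was HSF1 shRNA, control, RPA1 shRNA for Lpl, Pla2g7, Mgll and Fabp4. In that order the difference between HSF1 shRNA and control did not pass for Lpl, nor that between RPA1 shRNA and control for Fabp4, nor any for Mgll. The Mgll order turned with single arrays: HSF1 shRNA minus control was -0.01 without HSF1 shRNA array 1, and RPA1 shRNA minus control was 0.01 without RPA1 shRNA array 1. For Lipa and Lipe RPA1 shRNA was lowest, and the difference between HSF1 shRNA and control did not pass. For Lipg HSF1 shRNA was highest and the other groups overlapped, and for Pnpla2 the RPA1 shRNA mean was highest, with arrays that overlapped those of the control. Leaving out Lipg and Pla2g7, which were chosen for such gaps, 2 of 6 genes under HSF1 shRNA lay above the control on all arrays and 2 below, against 23.9% and 13.9% of all genes. Under RPA1 shRNA 0 of 6 lay above the control and 3 below, against 21.9% and 19.2% of all genes. On all arrays, 4 of 6 lay higher under HSF1 shRNA than under RPA1 shRNA and 0 lower, against 20.5% and 14.1% of all genes.

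Over the 9 arrays, the 5 genes outside the set with the highest Pearson correlation to Lipg were Uso1, Aldoa, Prkcd, Mov10 and Plekhh1, with r from 0.990 to 0.978. Uso1 encodes a vesicle tethering factor of the Golgi and Aldoa a glycolytic aldolase. Their HSF1 shRNA minus control differences were far smaller than the 1.60 of Lipg, from 0.19 for Aldoa to 0.47 for Plekhh1. The 5 genes most like Pla2g7 were Ift74, Stard4, Bivm, Cyb5a and Sipa1l2, with r from 0.997 to 0.995. Stard4, which encodes a cholesterol transfer protein, came nearest in size, at 0.34 under HSF1 shRNA and -0.93 under RPA1 shRNA, both against the control. Cyb5a, the gene of cytochrome b5, stood at 0.17 and -0.61 in the same comparisons. The 9 arrays form 3 groups, so r reflects mainly the group means, and for Pla2g7 also the spread between its RPA1 shRNA arrays. These correlated genes were found by searching all genes for this likeness.

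**Figure D3:**
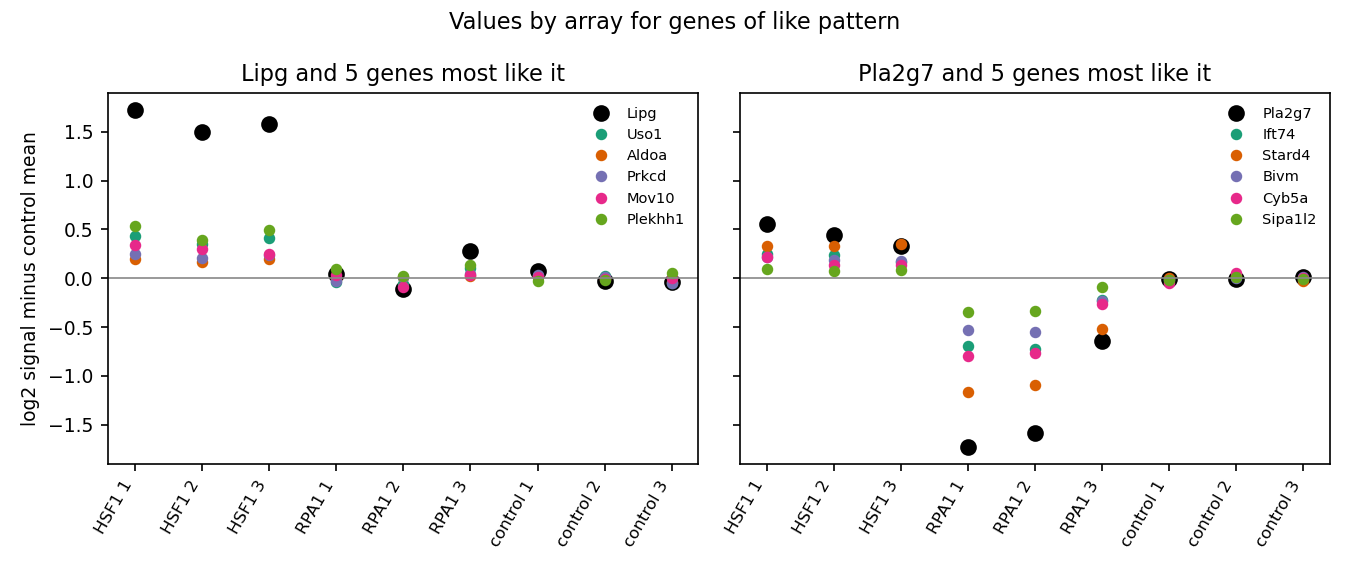
Log2 signal minus the control mean on each array for Lipg (left) and Pla2g7 (right) in large black points, each with the 5 genes most correlated with it in small coloured points. Of the RPA1 shRNA arrays, array 3 lies nearest the control for Pla2g7 and for all 5 genes beside it. These genes were chosen by correlation over the same arrays, so this shared place is no separate finding.

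The genes around these enzymes were read from 8 lists of lipid-handling genes, of which 131 of 141 genes were measured. Under HSF1 shRNA 15 of the 131 rose and 4 fell (11.5% and 3.05%, against 9.89% and 6.21% of all genes). Under RPA1 shRNA 33 rose and 18 fell (25.2% and 13.7%, against 15.4% and 14.7%). Between HSF1 shRNA and RPA1 shRNA 22 were higher and 18 lower under HSF1 shRNA (16.8% and 13.7%, against 14.7% and 9.71%). The median difference over these genes was 0.04, 0.04 and 0.00. The counts of single lists are small, and ranges given beside them are over 19 alternatives.

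Of 17 partners of Lpl and Lipg, 0 rose and 2 fell under HSF1 shRNA (falls 1 to 4), and 3 rose and 4 fell under RPA1 shRNA, with the lipoprotein receptor gene Vldlr lowest in both (-0.68 ± 0.09, limma adjusted p = 0.0013, and -0.94 ± 0.09, 7.7e-05). Lmf1, which encodes a factor that matures both lipases, fell under HSF1 shRNA by 0.16 on the log2 scale (± 0.05, limma adjusted p = 0.045), a call lost in 8 of 19 alternatives. Its fall under RPA1 shRNA was larger (-0.36 ± 0.05, limma adjusted p = 0.00041). Of 10 other extracellular and digestive lipases 2 rose under HSF1 shRNA and 3 under RPA1 shRNA with 0 falls, led by the phosphatidylserine phospholipase gene Pla1a (0.91 ± 0.14, limma adjusted p = 0.0024) and by Lipn (1.78 ± 0.28, 0.0012). Liph rose in both (0.55 ± 0.11, limma adjusted p = 0.0082, and 1.10 ± 0.11, 7.7e-05). Lipn and Liph read 5.68 and 5.95 in the control, below 6.81, the first quartile of gene means. The SD of Lipn under RPA1 shRNA was 0.69. Of 19 genes of intracellular hydrolysis 3 rose under HSF1 shRNA, and 4 rose and 1 fell under RPA1 shRNA. Abhd5, whose protein activates the lipase encoded by Pnpla2, rose in both (0.52 ± 0.06, limma adjusted p = 0.00081, and 0.39 ± 0.06, 0.0013). Of 18 droplet genes 1 rose and 2 fell under HSF1 shRNA (falls 1 to 4), and 5 rose and 3 fell under RPA1 shRNA, with the droplet coat gene Plin2 up in both (0.43 ± 0.07, limma adjusted p = 0.0027, and 0.65 ± 0.07, 9.6e-05).

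Of 25 other phospholipase A2 and acetylhydrolase genes, 2 rose and 0 fell under HSF1 shRNA, and 6 rose and 1 fell under RPA1 shRNA. The rises under HSF1 shRNA, of Pla2g1b and Pla2g4c, ranged from 0 to 4, with 0 left without HSF1 shRNA array 1, HSF1 shRNA array 2 or control array 3. The fall, next to -1.32 for Pla2g7, was that of the intracellular acetylhydrolase subunit gene Pafah1b3 (-0.48 ± 0.06, limma adjusted p = 0.00023). Of 16 genes of fatty acid binding and activation 4 rose under HSF1 shRNA (2 without control array 3), and 3 rose (6 without RPA1 shRNA array 3) and 1 fell under RPA1 shRNA. Fabp5, a close relative of Fabp4, rose under HSF1 shRNA by 0.70 ± 0.09 (limma adjusted p = 0.0012). Of 13 lysosomal genes 3 rose under HSF1 shRNA, and 6 rose and 3 fell under RPA1 shRNA. The count of 6 became 3 without RPA1 shRNA array 1 or 2 or control array 2 or 3. There Gla and Lamp1, a lysosomal hydrolase gene and a membrane protein gene, rose (0.61 ± 0.07, limma adjusted p = 0.00024, and 0.43 ± 0.06, 0.00057). Both were also called higher under HSF1 shRNA, and kept that call in 19 and 17 of 19 alternatives. Lipa, by contrast, fell under RPA1 shRNA, and so did Tfeb, a regulator of lysosomal genes (-0.61 ± 0.06, limma adjusted p = 8.1e-05). Of 13 lipid-sensing and adipogenic factors none was called under HSF1 shRNA (0 up, 0 down), and 3 rose and 5 fell under RPA1 shRNA, among the falls the sterol regulator gene Srebf2 (-0.67 ± 0.06, limma adjusted p = 3.2e-05).

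**Figure D4:**
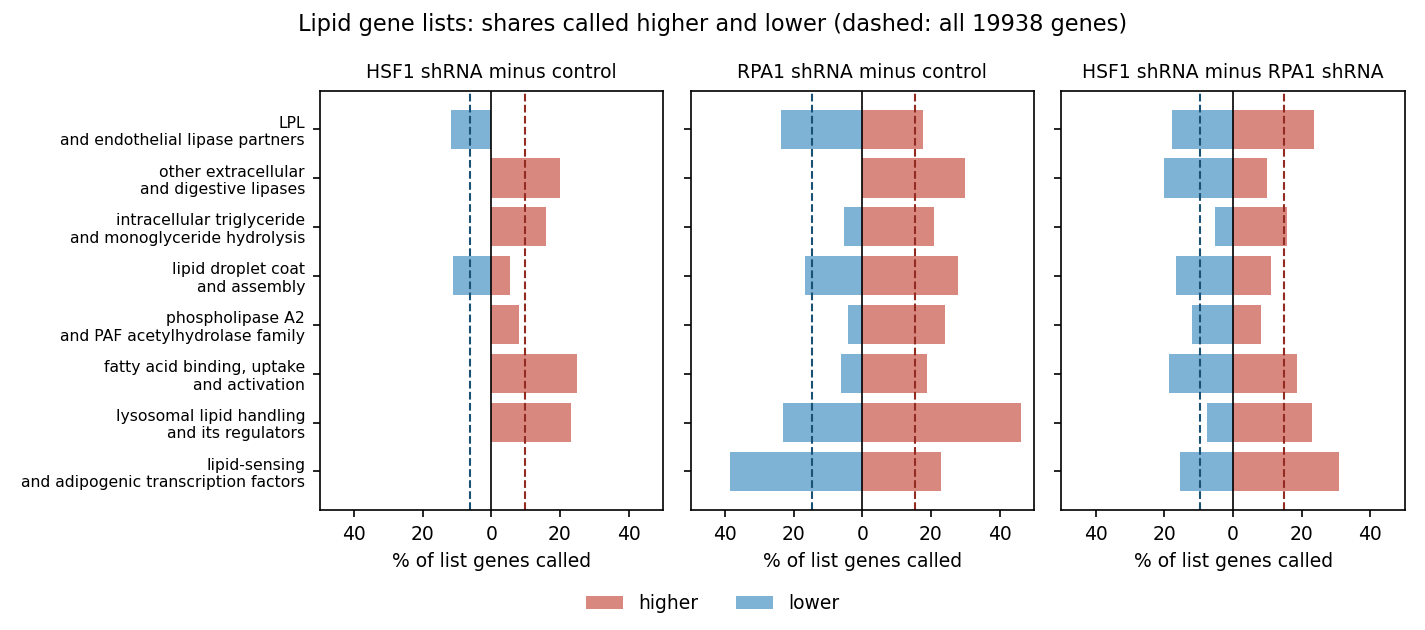
Share of the measured genes of each lipid list called higher (right of 0) or lower (left of 0) in the 3 comparisons, with dashed lines for the shares over all 19938 genes. Under RPA1 shRNA the lysosomal list has 6 of 13 genes higher and the factor list 5 of 13 lower.

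These enzymes are also made by adipocytes, macrophages and endothelial cells, so markers of those cells were read beside them. Of 8 adipocyte markers 0 rose and 0 fell in each comparison by limma, and their mean levels lay between percentile 8.5 (Adipoq) and 51.5 (Slc2a4) of all genes. The log2 of their summed signal ranged from 10.55 to 10.62 under HSF1 shRNA, 10.59 to 10.76 under RPA1 shRNA and 10.59 to 10.63 in the control.

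Of 12 macrophage markers 2 rose under HSF1 shRNA and 3 under RPA1 shRNA with 0 falls. Of all genes 9.89% and 15.4% were called higher in these comparisons. Between HSF1 shRNA and RPA1 shRNA 0 of the 12 were higher and 1, Cd68, was lower under HSF1 shRNA. The sum ranged from 10.69 to 10.72 under HSF1 shRNA, 11.10 to 11.47 under RPA1 shRNA and 10.46 to 10.54 in the control. It adds linear signals, so the brightest marker, Cd68, weighs most in it. The Cd68 means were 8.71, 10.28 and 8.23 in these groups. Lyz2, the lysozyme gene, rose by 0.50 ± 0.07 under HSF1 shRNA (limma adjusted p = 0.0012) and 0.52 ± 0.07 under RPA1 shRNA (0.00033). Csf1r, a growth factor receptor gene, rose by 0.27 ± 0.07 under HSF1 shRNA (limma adjusted p = 0.032, lost in 8 of 18 alternatives, among them each that left out an HSF1 shRNA array) and by 0.35 ± 0.07 under RPA1 shRNA (0.0046). Cd68, a lysosomal glycoprotein gene, rose by 2.06 ± 0.17 under RPA1 shRNA (limma adjusted p = 2.8e-05). It had the highest level on the list, at percentile 58.7, and the other markers lay between 13.8 (Ptprc and Adgre1) and 37.1 (Cd14).

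Of 9 endothelial markers 1 rose and 1 fell under HSF1 shRNA, and 2 rose and 1 fell under RPA1 shRNA. Between HSF1 shRNA and RPA1 shRNA 0 of the 9 were higher and 1 was lower under HSF1 shRNA. The rises ranged from 0 to 2 under HSF1 shRNA and from 0 to 3 under RPA1 shRNA over 19 alternatives, and Pecam1 lost its call in 8 of 18 in each, among them those that left out control array 2 or 3. The markers lay between percentile 7.3 (Emcn) and 61.4 (Egfl7), and their sum ranged from 10.71 to 10.77 under HSF1 shRNA, 10.67 to 10.76 under RPA1 shRNA and 10.76 to 10.78 in the control. Of 11 fibroblast markers 0 rose and 5 fell under HSF1 shRNA, and 0 rose and 8 fell under RPA1 shRNA. Over all genes 9.89% rose and 6.21% fell under HSF1 shRNA, and 15.4% rose and 14.7% fell under RPA1 shRNA. Between HSF1 shRNA and RPA1 shRNA 5 fibroblast markers were higher under HSF1 shRNA and 0 lower, against 14.7% and 9.71% of all genes. Their sums ranged from 15.81 to 15.85 under HSF1 shRNA, 15.54 to 15.66 under RPA1 shRNA and 15.99 to 16.01 in the control. The count of 5 fibroblast markers that fell under HSF1 shRNA ranged from 1 to 7. Omission of HSF1 shRNA array 1, 2 or 3 gave a count of 3, 3 or 2, and omission of array 1, 2 or 3 of the control gave 1, 2 or 3. Their levels lay between percentile 4.7 (Lum) and 100 (Vim). The part of these markers in the differences of the 8 genes was not tested.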

How the data were processed

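The submitters measured RNA on Affymetrix Mouse Gene 1.0 ST arrays, 9 in 3 groups. The deposited values are log2 signals per probe set, made with RMA in Partek 6.5 per the submitters' processing notes; the log2 scale was inferred from their range, and the build is not given in the sources used here. They were used without further scaling. Array medians lay between 7.72 and 7.81, and the number of arrays limits the precision. Of 35557 rows, 21789 had 1 gene symbol in the platform annotation, 1621 several and 12147 were not listed. The row with the highest mean stood for a gene, which left 19938 genes, with no filter on dim genes. Group means were fitted by limma 3.58.1 in R 4.3.3 to all genes and 9 arrays, with empirical Bayes moderation and Benjamini-Hochberg adjustment per comparison, two-sided. The fit was also run on simulated normal noise with the same SD in every group, without tied values or an array that stood apart. For HSF1 shRNA and RPA1 shRNA against the control, it recovered 34% and 40% of 1.25-fold changes. Small differences that did not pass may thus have been missed. The direct comparison was not simulated. Intervals are 95% and unadjusted.

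The genes and lists were chosen with earlier results of these data known. The text names the 8 genes in every comparison and the 5 genes most correlated with Lipg or Pla2g7. It also names some, not all, of the called list genes with the largest differences (up to 4 per list and comparison). Alternatives were scaling, a filter on dim genes, averaging rows, the variance model, the arrays fitted, array weights, a replicate block and leaving out each array. Same-numbered arrays had deviations from their group means that correlated between -0.16 and 0.09, so the numbers were not taken to pair the arrays.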

Additional observations from a re-analysis of the deposited data

Results flagged for a closer look

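The difference between the effects of the knockdowns is the direct comparison, HSF1 shRNA minus RPA1 shRNA. In limma with n = 3 arrays per group, 5 of the 6 tested genes passed it, 4 higher and 1 lower, against 24.4% of all genes. The 6 genes were named with earlier results of these data known, so the count describes these genes only. The values were 0.38 for Lpl, 0.77 for Lipa, 0.56 for Lipe, 0.58 for Fabp4 and -0.35 for Pnpla2, whose call was lost in 6 of 19 alternatives. Pla2g7, at 1.76, was marked because all HSF1 shRNA arrays were above and all RPA1 shRNA arrays below the control arrays, and its difference was not tested. Lpl showed the same order on its arrays, but its lowest HSF1 shRNA array and highest control array both read 10.04 after rounding. Its difference from the control under HSF1 shRNA did not pass.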

How the results depend on the processing

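No called difference of the 6 tested genes changed sign under the alternatives run. With array weights the counts of called genes were 5313 (HSF1 shRNA minus control), 9065 (RPA1 shRNA minus control) and 7926 (HSF1 shRNA minus RPA1 shRNA), against 3210, 5998 and 4863. Leaving out 1 array gave 1953 to 4696, 4642 to 7245 and 3228 to 6539 calls in that order. Array weights also brought past the threshold Fabp4 (-0.19) and Mgll (-0.22) under RPA1 shRNA, Mgll between the knockdowns (0.25), Pnpla2 against the control under HSF1 shRNA (-0.27) and RPA1 shRNA (0.23), and Lipe under HSF1 shRNA (-0.19). The Lipe difference also passed with quantile (-0.20), median (-0.22) and cyclic loess scaling (-0.21), among genes above the median gene (-0.19) and without RPA1 shRNA array 3. Leaving out 1 array it ranged from -0.23 to -0.12. Without 1 array Lpl under RPA1 shRNA ranged from -0.32 to -0.20. Pnpla2 ranged from -0.30 to -0.18 under HSF1 shRNA, from 0.06 to 0.24 under RPA1 shRNA and from -0.47 to -0.29 between the knockdowns. The last call was lost in the unmoderated test and in the fit to 6 arrays (both -0.35) and without HSF1 shRNA array 2 or 3 or RPA1 shRNA array 1 or 2. The cause was not tested. With the replicate number as a block, which the arrays gave no ground for, 2799, 5692 and 4414 genes passed, and the replicate block changed no call of the 6 tested genes. Lipg, Mgll and Fabp4 lie below the median gene and have no value among genes above it.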
